A study of Mus musculus with 2 samples.

Results

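Low-CpG promoters that carried trimethylation of histone H3 at lysine 4 (H3K4me3) were examined in MEL cells. They were the promoters of protein-coding genes on chromosomes 1 to 19 with a ratio of observed to expected CpG under 0.4 in the sequence within 500 bases of the 5'-most annotated start, and with a replicated H3K4me3 peak within 1000 bp of that start. There were 900 of them, among 8133 low-CpG promoters and 20807 protein-coding promoters in all. They lay on all 19 chromosomes. The members were selected on measured values, the presence of a peak, so that they are marked is not a finding. As background, a replicated peak lay at 11.1% of the low-CpG promoters and at 48% of all promoters, and nothing is read from those shares, since the rule used them.

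The data are H3K4me3 ChIP-seq peak lists from 2 libraries of a single group, untreated as far as the labels say, with no second condition. MEL is an immortalized mouse erythroleukaemia line, annotated by the submitters as a leukaemia and a counterpart of the human line K562, and it is 1 line, so nothing here speaks of other clones or of normal red cell precursors. The libraries are called biological replicates 1 and 2 but name the same cell sample, so the spread between them may be technical. With 1 group, and with members chosen by their peaks, no test over samples exists, and all counts, medians and differences below are descriptions. The peak lists carry no numbers of reads, which leaves the depth of each library unknown, and shallow coverage can hide a peak. The label was checked against markers: all 8 erythroid or erythroleukaemia markers (Gata1, Tal1, Klf1, Nfe2, Gfi1b, Zfpm1, Spi1 and Fli1) had a replicated peak at a start, as did 1 of 14 markers of liver, muscle, neurons, lymphocytes and epidermis, the muscle gene Ckm.

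In mammals most promoters of broadly used genes lie in CpG islands, stretches rich in unmethylated CpG. Proteins with a CXXC zinc finger, such as CFP1, bind unmethylated CpG and bring the SET1 methyltransferases that write H3K4me3. Promoters poor in CpG are typical of genes used in few tissues, and there the mark is generally found where the gene is transcribed.

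A few promoters show how sparse CpG was at these starts. Each sequence is 300 bases of GRCm38 (mm10), read 5' to 3' on the strand of the gene, in lower case with every CpG in capitals. A start window runs from 250 bases before the 5'-most start to 49 bases after it, and a summit window is centred on the highest point of the strongest start peak. Shown are the members with the highest signal, those with the highest signal among the blood gene lists, and those with the lowest CpG ratio, in each case among promoters with under 10% repeated sequence, off shared peaks and away from non-coding genes. The first is Xaf1 (chr11:72301379-72301678, plus strand), an interferon-induced gene whose product binds the apoptosis inhibitor XIAP, with 6 CpGs.
Xaf1 start: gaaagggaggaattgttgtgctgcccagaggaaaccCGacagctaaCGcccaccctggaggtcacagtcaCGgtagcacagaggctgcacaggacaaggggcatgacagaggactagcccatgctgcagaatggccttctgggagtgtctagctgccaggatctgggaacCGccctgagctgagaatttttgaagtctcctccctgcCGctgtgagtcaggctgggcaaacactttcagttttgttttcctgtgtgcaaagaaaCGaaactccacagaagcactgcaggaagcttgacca
Plekhm2 (start window chr4:141664850-141665149, summit window chr4:141664180-141664479, minus strand), which encodes an adaptor between lysosomes and kinesin, had 8 CpGs at its start and 20 at its summit. Slc6a9 (start window chr4:117834256-117834555, summit window chr4:117836449-117836748, plus strand), the glycine transporter GlyT1, had 7 and 25.
Plekhm2 start: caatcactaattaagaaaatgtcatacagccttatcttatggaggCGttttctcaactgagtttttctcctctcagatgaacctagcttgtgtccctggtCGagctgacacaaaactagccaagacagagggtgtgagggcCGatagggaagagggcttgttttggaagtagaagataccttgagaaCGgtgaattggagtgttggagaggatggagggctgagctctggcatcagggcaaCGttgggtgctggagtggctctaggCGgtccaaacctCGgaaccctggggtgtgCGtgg
Plekhm2 summit: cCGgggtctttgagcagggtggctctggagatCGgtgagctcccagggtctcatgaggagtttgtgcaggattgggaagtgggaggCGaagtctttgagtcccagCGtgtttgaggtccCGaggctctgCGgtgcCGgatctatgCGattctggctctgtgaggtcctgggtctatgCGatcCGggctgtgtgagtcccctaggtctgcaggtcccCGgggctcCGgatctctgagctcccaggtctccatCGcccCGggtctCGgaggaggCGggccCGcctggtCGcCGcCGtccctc
Slc6a9 start: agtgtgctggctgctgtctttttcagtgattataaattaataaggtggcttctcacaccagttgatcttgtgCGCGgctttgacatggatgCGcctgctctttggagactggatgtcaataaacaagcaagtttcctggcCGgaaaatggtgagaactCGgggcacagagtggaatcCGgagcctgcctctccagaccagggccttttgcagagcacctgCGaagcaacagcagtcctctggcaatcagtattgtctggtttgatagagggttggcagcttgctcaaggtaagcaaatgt
Slc6a9 summit: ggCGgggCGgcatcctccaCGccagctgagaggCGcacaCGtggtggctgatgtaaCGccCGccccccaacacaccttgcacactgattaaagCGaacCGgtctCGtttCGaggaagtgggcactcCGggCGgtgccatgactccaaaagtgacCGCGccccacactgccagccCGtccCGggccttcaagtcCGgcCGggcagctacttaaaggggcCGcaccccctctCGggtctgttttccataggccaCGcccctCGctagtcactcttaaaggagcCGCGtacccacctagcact
Runx1 (start window chr16:92826100-92826399, summit window chr16:92825518-92825817, minus strand) encodes a transcription factor needed for blood stem cells to form, and its windows held 3 and 8 CpGs.
Runx1 start: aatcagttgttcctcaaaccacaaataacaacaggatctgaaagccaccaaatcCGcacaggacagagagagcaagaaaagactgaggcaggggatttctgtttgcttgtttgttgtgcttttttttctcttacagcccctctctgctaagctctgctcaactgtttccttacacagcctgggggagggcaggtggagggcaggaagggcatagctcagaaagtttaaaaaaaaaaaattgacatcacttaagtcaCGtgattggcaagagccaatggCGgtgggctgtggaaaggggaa
Runx1 summit: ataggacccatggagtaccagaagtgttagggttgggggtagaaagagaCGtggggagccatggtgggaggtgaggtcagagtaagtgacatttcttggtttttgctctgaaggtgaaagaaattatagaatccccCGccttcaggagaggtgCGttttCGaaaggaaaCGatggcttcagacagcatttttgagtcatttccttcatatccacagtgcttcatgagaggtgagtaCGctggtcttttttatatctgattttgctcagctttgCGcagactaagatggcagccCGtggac
Klf1 (chr8:84901678-84901977, plus strand), a zinc finger activator of adult globin genes, held 3 CpGs, and Gfi1b (chr2:28621933-28622232, minus strand), a repressor needed for red cells and megakaryocytes, held 7.
Klf1 start: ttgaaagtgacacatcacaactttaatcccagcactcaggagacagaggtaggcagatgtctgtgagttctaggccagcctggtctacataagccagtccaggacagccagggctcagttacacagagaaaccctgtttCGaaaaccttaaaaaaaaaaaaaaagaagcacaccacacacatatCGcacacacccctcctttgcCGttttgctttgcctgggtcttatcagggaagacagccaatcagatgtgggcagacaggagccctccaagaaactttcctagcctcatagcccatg
Gfi1b start: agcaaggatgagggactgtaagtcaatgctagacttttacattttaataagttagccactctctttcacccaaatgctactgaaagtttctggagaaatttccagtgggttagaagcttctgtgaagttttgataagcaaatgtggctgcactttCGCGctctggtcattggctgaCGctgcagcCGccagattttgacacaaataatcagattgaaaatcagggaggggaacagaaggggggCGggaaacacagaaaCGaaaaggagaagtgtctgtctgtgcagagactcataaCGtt
Rhag (chr17:40810876-40811175, plus strand) and Kel (chr6:41704290-41704589, minus strand) encode the Rh-associated glycoprotein and the Kell blood group protein of the red cell surface. Each window held 1 CpG.
Rhag start: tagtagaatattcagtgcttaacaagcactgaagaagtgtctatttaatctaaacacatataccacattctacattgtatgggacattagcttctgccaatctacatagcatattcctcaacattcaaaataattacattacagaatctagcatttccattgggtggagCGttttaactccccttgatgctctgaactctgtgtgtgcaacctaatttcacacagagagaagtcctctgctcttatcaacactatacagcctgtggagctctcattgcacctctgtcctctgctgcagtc
Kel start: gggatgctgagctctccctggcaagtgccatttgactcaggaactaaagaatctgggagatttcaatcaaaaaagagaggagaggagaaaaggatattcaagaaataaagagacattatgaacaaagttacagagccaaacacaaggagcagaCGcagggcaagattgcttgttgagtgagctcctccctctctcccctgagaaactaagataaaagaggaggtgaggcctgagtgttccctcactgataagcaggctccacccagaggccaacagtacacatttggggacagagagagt

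The members sat at the upper end of the low-CpG range. Their median CpG ratio was 0.273, against 0.166 at the 7233 low-CpG promoters without a peak, and they held a median of 16 CpGs within 500 bases of the start against 8. Their GC content was also higher, at a median of 50.5% against 45.6%. Interspersed and simple repeats, as soft-masked in the genome file, covered about as much of both, at medians of 13% and 13.8%. Repeated 32-base words, those that occur elsewhere in the genome, differed more. They made up under 10% at 83.3% of members and 67.5% of unmarked low-CpG promoters. All words were repeated at 0 members and 242 unmarked promoters. Members had a median of 4 annotated starts and the unmarked genes 2. The part of GC content, of repeated words and of the number of starts in the marking was not tested.

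The share of promoters with a peak rose with the CpG ratio without a step at the 0.4 limit. It was 2.38% of 1679 promoters with a ratio under 0.1 and 6.69% of 3020 with a ratio from 0.1 to 0.2. It went on to 14.7% of 2037 in the next bin and 25.6% of 1397 from 0.3 to 0.4. Above the limit it was 36.1% from 0.4 to 0.5, 58.2% from 0.5 to 0.6, 73.6% from 0.6 to 0.8 and 84.3% at 0.8 and over. Wdr83, Trpt1 and Lsmem1 lay just inside the limit at 0.3998, and the marked genes just outside were Cxcl10 at 0.401, Osbpl5 at 0.401 and Lrrc8e at 0.401. At the other limit, the peak edges of Snrpc, Ptprcap and Fgfrl1 lay 997, 995 and 994 bp from the start, and those of the unmarked genes Dnajc18, Acsl5 and Tmem95 lay 1017, 1018 and 1022 bp away.

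**Figure D1:**
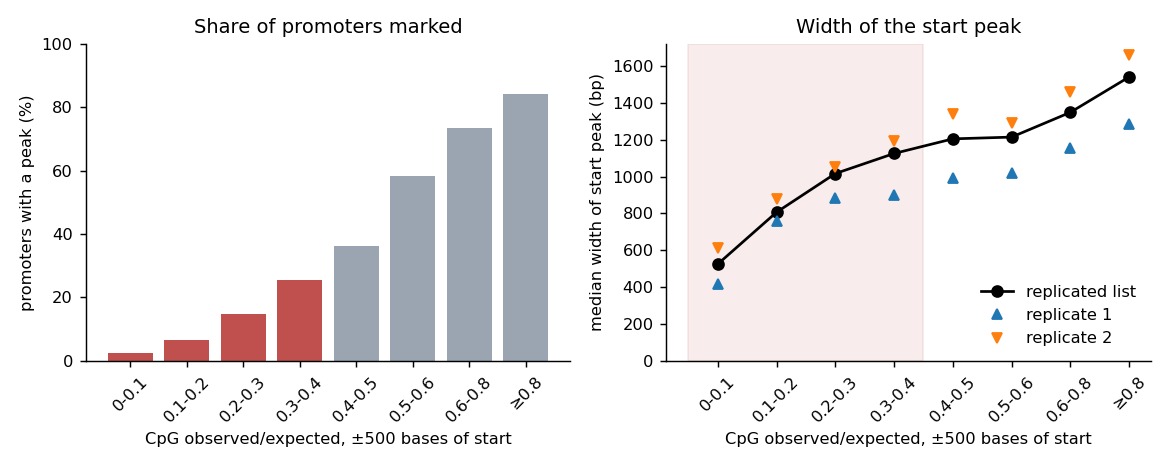
Share of protein-coding promoters with a replicated peak (left, percent) and median width of the strongest start peak in bp (right, for the replicated list and each replicate list), by CpG observed/expected ratio within 500 bases of the 5'-most start. The low-CpG bins are red or shaded; the share rises from 2.38% to 84.3% and the median width in the replicated list from 525 to 1541 bp.

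For each member the strongest start peak is the one with the highest signal value, a score per peak made by the authors and used here only as a percentile within its own list. Positions of summits, and the CpG around them, are taken from the replicated list unless a replicate is named. The 900 members had 882 distinct strongest peaks, because 36 members shared theirs with another member. A peak was listed near the 5'-most start of 863 members (95.9%) in both replicate lists, against 99.6% of 7478 marked promoters with high CpG (a ratio of at least 0.6 and at least 50% GC). Replicate 1 listed a peak at 868 members and replicate 2 at 894. The replicated list was made from the replicate and pooled lists. These shares are therefore largely built in and are no measure of reproducibility. Only 4 members rested on a peak with a q-value above 0.05, Spo11, Myct1, Tyrobp and Txlnb, of which Myct1 and Tyrobp are named here because of that value. Conversely, 123 low-CpG promoters outside the set had a start peak in a replicate list but not in the replicated list: 59 in replicate 1 alone, 52 in replicate 2 alone and 12 in both.

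Peaks at low-CpG promoters were narrower and ranked lower than peaks at high-CpG promoters in every list compared. The median width was 1011.5 bp (quartiles 537 and 1591, range 152 to 9303) at the members, 1230 bp at marked promoters of middle CpG and 1442 bp at those of high CpG. In replicate 1 the medians were 842 bp at members and 1222 bp at high-CpG promoters, and in replicate 2 they were 1066 and 1553 bp. The difference between the classes was thus 434 ± 75.7 bp (SD, n = 2), while the member median itself was 954 ± 158 bp. The wider peaks of replicate 2 appeared in both classes. The median signal percentile was 68.2 at members, 78.9 at middle-CpG and 85.0 at high-CpG promoters. It was 73.5 and 73.0 at members in replicates 1 and 2, and 89.6 and 86.8 at high-CpG promoters, a difference of 14.9 ± 1.57 percentile points (SD, n = 2).

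Median width was larger in the stronger quintiles of signal at members, and the gap to high-CpG promoters differed between quintiles without falling steadily. In the strongest quintile of the replicated list, which held 268 members (29.8%) and 62.9% of the marked high-CpG promoters, the median widths were 1451 and 1525 bp. In the next quintile they were 1156 and 1349 bp. In the middle quintile they were 607 and 1144 bp, and in the weakest quintile, with 64 members and 37 high-CpG promoters, 237 and 590 bp. The quintile above the weakest, with 102 members and 78 high-CpG promoters, had 364.5 and 441.5 bp. Quartiles of the classes overlapped in all 5 quintiles. The part of signal in the difference of widths was not tested further.

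**Figure D2:**
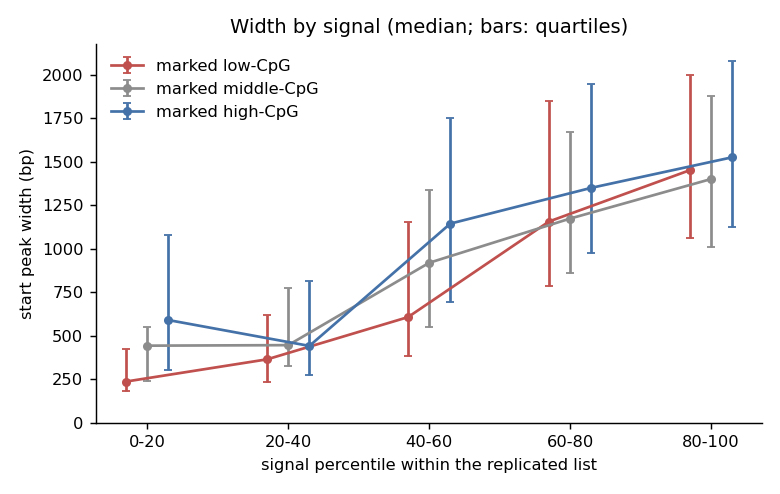
Width of the strongest start peak in bp (median, bars from the lower to the upper quartile) by quintile of signal within the replicated list, for marked promoters of low, middle and high CpG. The low-CpG medians run from 237 to 1451 bp and lie below the high-CpG medians in each quintile, by varying amounts.

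Agreement between the replicates was coarse at single promoters. Among the 863 members in both lists the signal percentile differed by a median of 9.42 points, and by more than 27.4 points at 10% of members. The strongest peaks of both lists overlapped at 797 of the 863, so at the rest different peaks are compared. Widths differed by a median of 0.35 on the log2 scale, against 0.34 at high-CpG promoters, and lay within 1.5-fold of each other at 64.3% and 64.1%.

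Of the 10 members with the strongest peaks, 4 were genes of immune defence with the summit in low-CpG sequence and 4 had the summit in high-CpG sequence. Xaf1 led, with a peak of 1150 bp on chromosome 11 from 72301181 to 72302330 at percentiles 99.94 in replicate 1 and 99.96 in replicate 2, and with its summit in a coding exon 66 bp downstream of the start. Trim21, a cytosolic antibody receptor and ubiquitin ligase, stood at 98.8 and 99.7. The neighbours Igtp and Irgm2, interferon-induced GTPases, shared a peak of 559 bp at 99.7 and 97.4, but 37.7% of the 32-base words at each promoter occur elsewhere in the genome, so reads there may be lost or misplaced. All 4 were high in both replicates. Plekhm2 (99.7 and 99.99), Slc6a9 (99.1 and 93.8) and Gapvd1 (92.6 and 99.8), a Rab5 regulator, had theirs in high-CpG sequence 569, 2093 and 1448 bp downstream. In replicates 1 and 2 the summits of the strongest peaks lay 2069 and 998 bp downstream at Slc6a9. They lay 415 and 1446 bp downstream at Gapvd1, and 301 and 1718 bp downstream at Hspa4l. Hspa4l, a heat shock protein gene (87.9 and 99.5), and Proca1 (98.3 and 99.7) had theirs in sequence of middle CpG. The remaining gene of the top 10, AC140267.1, had its summit 1620 bp upstream, nearest to a start of another gene, and its peak was also at Mief1, a mitochondrial fission gene.

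The widest peaks included several blood genes. Car1, which encodes a carbonic anhydrase abundant in red cells, had the widest, 9303 bp on chromosome 3 from 14799046 to 14808348, with 8987 bp in replicate 1 and 9365 bp in replicate 2. Cbfa2t3, a corepressor in the TAL1 complex, had 4499 bp (3962 and 4219 in the replicates), and Gfi1b had 4242 bp (3779 and 4256). Hdac7, a histone deacetylase gene, had 4225 bp, with 4224 and 4201, and Rnf213 had 4287 bp, with 4003 and 4309. These 5 were wide in both replicates and had their summit in low-CpG sequence. The others were wide mainly in replicate 2: Alkbh5, an RNA demethylase gene (5222 bp; 1635 and 4670), Tmem102 (5142 bp; 1705 and 4709), Mllt11 (5135 bp; 2548 and 4728) and the cytokine gene Il4 (4300 bp; 802 and 4424). The nearest edge of the Tmem102 peak lay 883 bp from the start. Its summit lay beyond the end of the gene, nearest to a start of another gene, and the peak was also at Fgf11. The Mllt11 peak was also at Cdc42se1. Its summit lay 3670 bp downstream in high-CpG sequence, but 582 bp downstream in replicate 1. Il4 stood at percentile 33 in replicate 1 and 97.5 in replicate 2. It had 3 start peaks in replicate 1, the strongest with its summit 1073 bp downstream, against 1837 bp in replicate 2. The kinesin gene Kif5b had 4557 bp, with 3429 and 3742.

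At the other end, weak and narrow peaks made up the tail. The lowest signals were at Txlnb, Acp5, F2, Actl11 and Ddr1, at percentiles from 1.23 to 3.32, and F2, the prothrombin gene of liver, and Actl11 had no start peak in replicate 1. The narrowest peaks, from 152 to 159 bp, were at Oprl1, Gm19684, Gm14326, Bdh2 and Uba2. Of these, Gm14326 consists to 88.9% of repeated words at its promoter. Gm14326 and Uba2 had no start peak in replicate 1. In replicate 2 the strongest start peak of Uba2 was 1449 bp wide at percentile 88.3, so its narrow peak was not found there as the strongest. The 5 members with the lowest CpG ratio were Rhag at 0.036, Kel at 0.037, Trim30c at 0.039, Cd226 at 0.041 and Olfr872 at 0.045. Rhag and Kel had peaks of 1928 and 1968 bp, and Trim30c and Cd226 172 and 251 bp, so a very low CpG ratio was found with wide and with narrow peaks.

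A low-CpG start did not mean a low-CpG summit. The CpG class of the sequence within 500 bases of the summit was low at 559 members (62.1%), middle at 167 (18.6%) and high at 174 (19.3%). Members with the summit in low-CpG sequence had it near the start, at a median of 145 bp downstream (quartiles -136 and 341), with 74.1% within 500 bp, and their median width was 819 bp at signal percentile 61.6. Members with the summit in high-CpG sequence had it at a median of 982 bp downstream (quartiles 679 and 1257), with 6.32% within 500 bp, and their median width was 1365.5 bp at percentile 78.4. Widths kept this order in each replicate, at 765 and 971 bp in replicate 1 and 838 and 1566 bp in replicate 2. The rule required low CpG around the start, and a summit within 500 bp shares much of that sequence. The tie between summit class and distance is thus partly built in, and nothing is read from it.

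**Figure D3:**
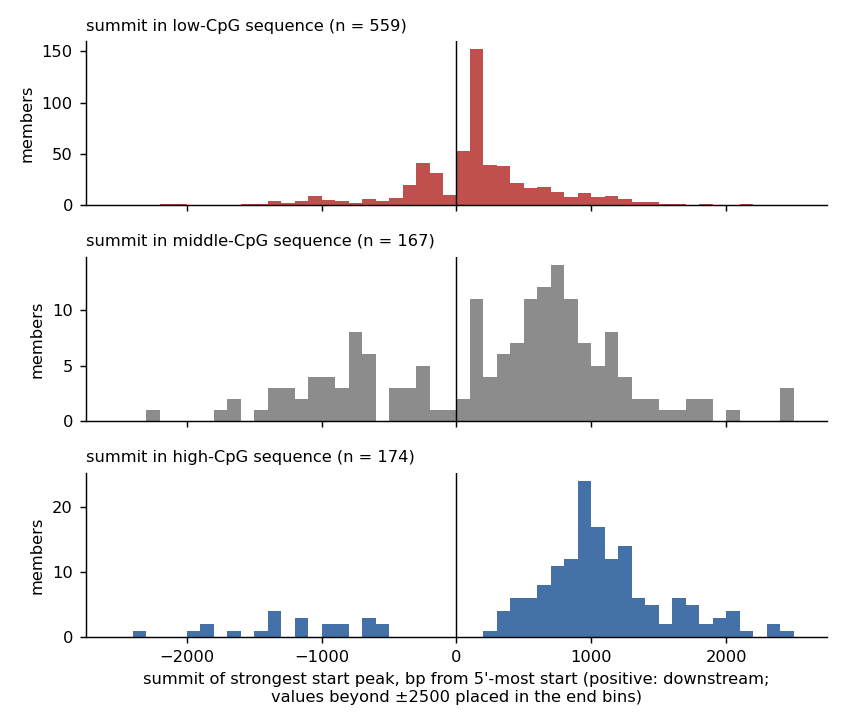
Position of the summit of the strongest start peak relative to the 5'-most start, in bp along the gene (positive is downstream), for the 900 members split by the CpG class of the sequence within 500 bases of the summit; the y axis counts members. Summits in low-CpG sequence gather about 145 bp past the start, and those in high-CpG sequence about 982 bp past it. This is partly built in, since the rule required low CpG around the start.

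The annotation puts many of these summits at another start of the same gene. Only starts of protein-coding genes were considered, not those of non-coding genes. The nearest such start was the gene's own 5'-most start at 332 members (36.9%), another start of the same gene at 471 (52.3%) and a start of another gene at 97 (10.8%). The median distance to the nearest such start was 180.5 bp. At marked high-CpG promoters the shares were 31.3%, 54.5% and 14.2%. The summit lay in an intron at 343 members, in an untranslated exon at 238, in a coding exon at 89, upstream of the gene at 227 and beyond its end at 3. Divergent neighbours were set aside by taking the 784 members with no opposite-strand protein-coding start within 2000 bp. There the summit lay downstream of the 5'-most start in 611 (77.9%), close to the 78.5% of high-CpG promoters. At least 1 of the start peaks, not always the strongest, covered the 5'-most start of 51% of members and 58.4% of high-CpG promoters.

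Most members had no start peak near another gene. None of their start peaks lay within 1000 bp of a start of another gene at 666 members (74.0%). At 87 (9.67%) the start peaks reached non-coding genes only. At 147 (16.3%) they reached another protein-coding gene, against 29.03% at high-CpG promoters. All start peaks were counted, and their median number was 1 at members and 2 at high-CpG promoters. Members with a shared peak had a higher CpG ratio at the summit, with a median of 0.551 against 0.320 at those on their own. Some genes of other tissues were members through such peaks and some through a peak of their own. Of 4 muscle members 2 had a peak of their own gene only, among them Neb, the gene of the giant thin filament protein nebulin, with a peak of 1763 bp at percentiles 82 and 84.4 in replicates 1 and 2 and its summit 237 bp downstream in low-CpG sequence. The summit of the strongest Neb peak lay 298 bp upstream in replicate 1 and 240 bp downstream in replicate 2. The troponin gene Tnnc1, also of muscle, had its summit 1343 bp upstream, nearest to a start of another gene, and shared the peak with Nisch. The synaptic scaffold gene Dlg4 shared its peak with Acadvl, the liver gene Vtn with Sarm1 and the taste receptor gene Tas1r1 with Nol9, all with the summit upstream in middle- or high-CpG sequence.

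Short motifs in the 300 bases of the start window described the sequences further. The letters searched were TATAAA on the gene's strand from 45 to 15 bases before the start, and the rest on both strands. Motifs of GATA factors were written AGATAA, with the close forms TGATAA for one end, AGATAG for the other end and TGATAG for both ends, and any of these counted as a match. CACCC is bound by Krüppel-like factors. GAGGAA, bound by ETS factors such as PU.1, was searched on both strands too, as were CCAAT and GGGCGG, the latter bound by SP1. None of these strings contains another, though matches can share end letters. GGGCGG was held by 22.4% of members, 8.93% of unmarked low-CpG promoters, 72.3% of marked high-CpG promoters and 43.7% of all promoters. CACCC was held by 63.9%, 48.9%, 61.6% and 58.3% in the same order, and GAGGAA by 38.1%, 31.3%, 24.3% and 27.8%. A GATA motif stood in 41.3% of members and 42.7% of unmarked low-CpG promoters, so its share was nearly equal with and without a peak, against 14.9% at marked high-CpG promoters and 27.1% of all. TATAAA was rarer at members (1.89%) than at unmarked low-CpG promoters (5.81%), and stood in 0.629% of marked high-CpG promoters and 2.71% of all. CCAAT was held by 36.4%, 39.7%, 39.5% and 38.6%. These shares move with base composition, which differs between the groups, and a match is a description of letters only.

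Blood gene lists held many members. Of 19 low-CpG promoters in the list of red cell membrane and effector genes, 14 were members (73.7%), as were 9 of 12 in the list of blood transcription factors (75%) and 4 of 7 in that of haem and iron genes (57.1%), beside 11.1% over all low-CpG promoters. The lists were drawn up with earlier results of these data known, so the shares are descriptions. Under the alternatives the red cell count ran from 12 to 16 and the transcription factor count from 7 to 10, but the haem and iron count ran from 2 to 5. Start peaks at no other protein-coding or non-coding gene were found at 13 of the 14 red cell members. The same held for 7 of the 9 transcription factor members and 2 of the 4 haem and iron members.

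Among the red cell genes the width was large and the signal moderate. The 14 members had a median width of 1799 bp and a median signal percentile of 71.4, beside 1011.5 bp and 68.2 over all members, and 12 had their summit in low-CpG sequence. Ermap, which carries the Scianna blood group, had a peak of 3108 bp at percentiles 99.2 and 76.8 in replicates 1 and 2, and Pklr, the red cell pyruvate kinase gene, had 2035 bp at 97.7 and 77.5. Both ranked higher in replicate 1 than in replicate 2. Kel stood at 95.8 and 78.4, Rhd, of the Rh blood group, at 90.5 and 72.5, Rhag at 81.4 and 60.3, and Car1 at 84.3 and 65.7. Epor, the erythropoietin receptor gene, stood at 85.8 and 78.9, with its summit 1238 bp downstream in high-CpG sequence of a coding exon. The summit of its strongest peak lay 1266 bp downstream in replicate 1 but 171 bp downstream in replicate 2. Smim1, which carries the Vel blood group, was higher in replicate 2, at 72.9 and 88.4. Tspo2, a cholesterol-binding protein gene, stood at 78.5 and 68.5, Tfr2, the second transferrin receptor gene, at 68.4 and 59.4, and Trim10 at 67.2 and 73.7. The weakest were Aqp1, a water channel gene, at 53.8 and 61.8, and Cldn13, at 53.0 and 30.0. Summits of the strongest peaks in replicates 1 and 2 also lay apart at other genes. They lay 602 and 172 bp downstream at Cldn13, 675 and 167 bp at Kel and 625 and 162 bp at Ermap. At Tfr2 they lay 237 bp upstream and 160 bp downstream, and at Smim1 60 bp upstream and 399 bp downstream. The paired percentiles can thus compare different peaks or summits.

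The 5 low-CpG genes of that list without a replicated start peak, named because they are few, were Slc4a1, Epb42, Hemgn, Abcg2 and Cd59a. Of the 14 members, 11 ranked higher in replicate 1 than in replicate 2, with a median difference of 13.7 percentile points. Over all 863 members in both lists the share was 50.3% and the median difference 0.210 points. At the 19 marked genes of the same list with more CpG, 8 ranked higher in replicate 1, with a median difference of -0.786 points. Other lists leaned the same way among their members in both replicate lists: 21 of 32 leukocyte surface and signalling members ranked higher in replicate 1 (median difference 7.66 points), as did 4 of 7 myeloid and mast cell members (8.28), 3 of 4 platelet members (5.75) and 4 of 4 C-type lectins and natural killer receptors (19.4). Some lists leaned the other way, among them interferon response members (9 of 24 higher in replicate 1, median difference -1.71 points). So did blood transcription factors (4 of 9, -1.87) and muscle members (0 of 4, -9.43). The lean is thus neither particular to the red cell list nor shared by all lists. With 1 library on each side, no test of it was possible, and its source was not tested.

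**Figure D4:**
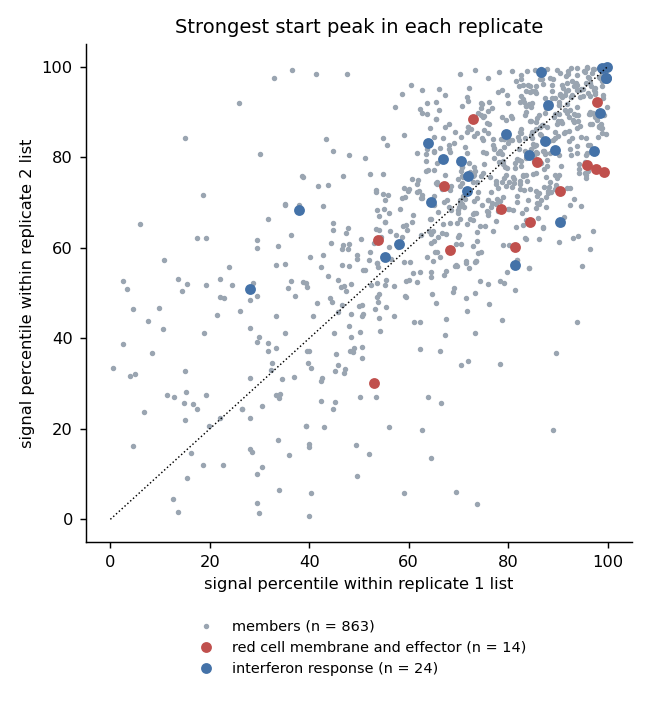
Signal percentile of the strongest start peak within the replicate 1 list (x axis) and the replicate 2 list (y axis) for the 863 members with a start peak in both, with the 14 red cell membrane and effector members and the 24 interferon response members coloured; the dotted line marks equal percentiles. Of the 14 red cell members, 11 lie on the replicate 1 side of the line, and of the 24 interferon members 9 do.

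The blood transcription factors spread over the whole range of signal. Runx1 had a peak of 3497 bp on chromosome 16 from 92823140 to 92826636, at percentiles 82.6 and 93.6, with its summit 481 bp downstream in an untranslated exon. In replicates 1 and 2 the summit of its strongest peak lay 193 and 476 bp downstream. Klf1 stood at 80.8 and 88.7, Gfi1b at 75.9 and 90.2 and Lyl1, a relative of TAL1, at 92.3 and 83.6. Cbfa2t3 stood at 87.6 and 75.5 and Runx3, a relative of Runx1, at 74.7 and 84.2. These 6 of the 9 stood above the member median in both lists. Lmo2, the bridging protein of the TAL1 complex, had a wide peak of 3087 bp at the moderate percentiles 61.0 and 54.5. Nfe2, which activates globin and platelet genes, stood at 78.3 and 34.3, so the replicates placed it far apart. Spi1, which encodes PU.1, was a member through a weak peak in an intron, of 199 bp, at 32.6 and 34.4. The low-CpG genes of the list without a peak, named because they are few, were Cebpe, Irf4 and Spib, which act in granulocytes, lymphocytes and B cells.

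At the haem and iron members the summit lay away from the low-CpG start. Fech, the enzyme that inserts iron into the porphyrin ring, Uros, an earlier enzyme of the pathway, Slc40a1, the iron exporter ferroportin, and Slc11a2, an iron importer, all had their summit in high-CpG sequence, 612 to 1704 bp downstream. Slc11a2 had no start peak in replicate 1 and stood at 74.7 in replicate 2. The others stood at 66.8 and 73.0 (Fech), 85.0 and 83.0 (Uros) and 90.7 and 87.5 (Slc40a1). The Uros peak was also at a start of Bccip and that of Slc11a2 at Gm5475. At both, the summit lay nearer to a start of another gene, 58 and 175 bp away, than to any start of the gene itself.

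Globin members and 3 of the 4 platelet members ranked low in the replicated list. Of 8 low-CpG globin genes, 2 were members, Hbb-bt at percentiles 73.3 and 41.1 and Hba-a1 at 11.5 and 27.6. Both have near-identical copies, and their promoters consist of 30.2% and 88.0% repeated 32-base words, so both calls are uncertain. Of 18 low-CpG platelet genes, 4 were members. Gp5, a subunit of the von Willebrand factor receptor, stood at 92.5 and 80.5 with a peak of 2543 bp. The integrin gene Itga2b stood at 19.2 and 27.4, the platelet tubulin gene Tubb1 at 34.5 and 30.9 and Gp1ba, another subunit of that receptor, at 12.5 and 4.55.

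Genes of leukocyte signalling and of the interferon response were also well represented. In the list of leukocyte surface and signalling genes 34 of 50 low-CpG promoters were members (68.0%), and 32 of the 34 had the summit in low-CpG sequence. Their median width was 1526 bp and their median percentile 66.9. Vav1, an exchange factor that activates Rac in blood cells, led at 98.2 and 86.9, and Cd37, a tetraspanin gene of lymphocytes, stood at 90.4 and 94.0. Receptors and kinases proper to T and B cells were not among them, since 0 of 27 low-CpG promoters in the lymphoid list were members. In the list of myeloid and mast cell genes 7 of 41 were (17.1%), among them Fcgr1, an antibody receptor gene, at 47.3 and 63.3.

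In the interferon response list 24 of 39 low-CpG promoters were members (61.5%), all with a start peak in both replicates. Their median percentile was 78.6 and their median width 1110.5 bp, so they ranked higher than members in general and were about as wide. The count was 18 when promoters with 10% or more repeated words were left out. Besides Xaf1, Igtp, Irgm2 and Trim21, the members included Gbp2, a guanylate-binding GTPase gene, at 97.2 and 81.3, and Slfn8, a Schlafen gene, at 87.4 and 83.5. The related list of all Schlafen and guanylate-binding genes had 6 members of 17. The TRIM family, many of whose members are ubiquitin ligases of innate immunity, had 12 of 36, with Trim34a at 96.2 and 97.5.

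**Figure D5:**
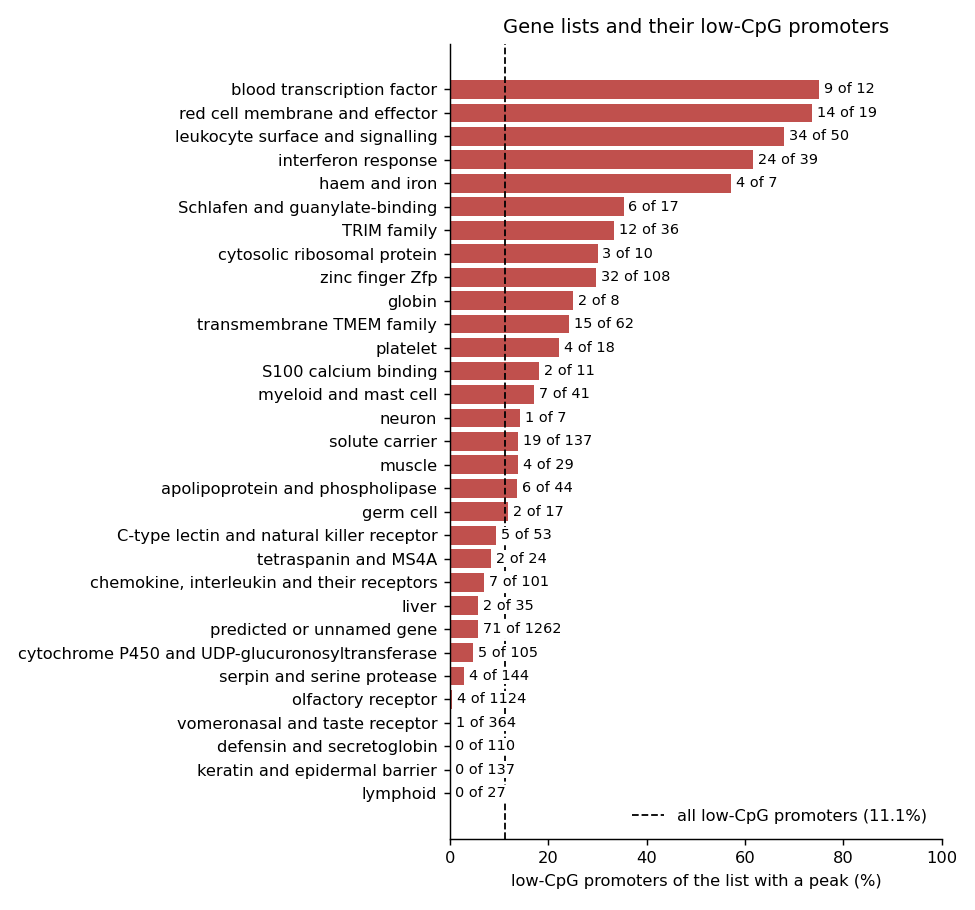
Percent of the low-CpG promoters of each gene list that were members, for 31 lists with 7 or more low-CpG promoters, with the counts beside the bars and a dashed line at 11.1%, the share over all low-CpG promoters. Blood transcription factor, red cell, leukocyte signalling and interferon lists stand above 60%, and keratin, defensin and lymphoid lists at 0. Some lists made by name pattern also hold unrelated genes, among them the apolipoprotein and the ribosomal protein lists.

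Families of sensory and barrier genes had next to no members, and some others lay below the background. The part of repeated sequence in these shares was not tested. Of 1124 low-CpG olfactory receptor promoters 4 were members (0.356%), Olfr872, Olfr221, Olfr112 and Olfr417, the last pair named because the group is small. Olfr872 stood at percentiles 36.2 and 62.8, and Olfr221 at 64.7 and 49.8 with its summit 2127 bp upstream. Vomeronasal and taste receptors had 1 member of 364, keratin and epidermal barrier genes 0 of 137, and defensin and secretoglobin genes 0 of 110. Liver genes had 2 of 35, serpins and serine proteases 4 of 144, and cytochrome P450 and UDP-glucuronosyltransferase genes 5 of 105, led by Cyp4f16 at 91.5 and 90.3. Chemokines, interleukins and their receptors had 7 of 101, with Il4 and Il15ra the strongest.

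Other families had shares on both sides of the background. Zinc finger genes named Zfp or a like symbol had 32 members of 108 (29.6%), with Zfp629 at 97.1 and 99.5 and Zfp605 at 84.0 and 95.9, but 15 when promoters with repeated words were left out. Solute carriers had 19 of 137 (13.9%), with Slc37a1 at 90.7 and 96.0 behind Slc6a9. The TMEM family had 15 of 62, muscle genes 4 of 29 and germ cell genes 2 of 17. The name pattern for cytosolic ribosomal proteins had 3 of 10. Its unmarked genes include the kinase gene Rps6ka5 and several copies with -ps in the name, so the share is not one of ribosomal protein genes proper. All 3 ribosomal members, Rps10, Rps14 and Rps2 (the last named because there are few), had a peak that was also at another gene. The name pattern for apolipoproteins and phospholipases, which also takes in Apobec genes and Apobr, had 6 of 44. C-type lectins and natural killer receptors had 5 of 53, tetraspanin and MS4A genes 2 of 24 and S100 genes 2 of 11. Neuron genes had 1 of 7 and replication-dependent histone genes 0 of 1. Predicted or unnamed genes had 71 of 1262 (5.63%), and 36 of the 71 had a peak of their own. The lists together held 294 members, and the other 606 (67.3%) belonged to none. Those 606 had a median width of 1009 bp and a median percentile of 68.6, much like the whole set, and were 15.2% of the 3992 low-CpG genes outside the lists.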

How the data were processed

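H3K4me3 ChIP-seq peaks of 2 MEL libraries were used. Per the submitters' notes, the authors called each replicate list from that replicate and a control, the pooled list from both, and the replicated list from the other 3, on mm10. Aligner, caller, settings and replication rule: these were not given in the sources used here. Per the deposited narrowPeak format, each peak has the authors' signal score, −log10 q and a summit. The signal score is undefined in the notes and was used as a percentile within its list.

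Starts came from GENCODE M21 on GRCm38, and sequences from the RefSeq copy of that build. CpG ratio was the number of CpGs times length over the product of C and G counts. Repeated words are 32-base words within 500 bases of the start that recur on either strand of the chromosomes or unplaced contigs. The strongest start peak was the highest-scoring peak within 1000 bp of the 5'-most start. The word count, the peak search and the CpG ratio were tested on made sequences. Python 3.11.15, numpy 2.4.6, pandas 2.3.3, scipy 1.17.1, numba 0.67.0, pysam 0.24.0 and matplotlib 3.10.9 were used.

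The members and the 33 gene lists (13 of symbols, 20 of name patterns) were chosen with earlier results of these data known. Genes named were the 10 strongest, 10 widest, 5 weakest, 5 narrowest and 5 lowest in CpG ratio, all members of the 5 blood lists, the 2 strongest of each other list, and the 3 on each side of both limits. A few of these genes and 1 list are not reported here. Alternatives were 11: windows of 500 and 2500 bp, a −log10 q limit of 5, the pooled list, each replicate list, a CpG limit of 0.35, the ratio within 1000 bases of the start, peaks given to the nearest start only, under 10% repeated words, and starts of protein-coding transcripts only. Chromosomes X and Y and the mm9 list were not used.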

Additional observations from a re-analysis of the deposited data

How the results depend on the processing

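The number of members stayed within 1.5 times of 900 under all 11 alternatives. It ran from 724 with a CpG limit of 0.35 to 1194 with a 2500 bp window. The replicate 1 and replicate 2 lists held a start peak at 868 and 894 of the members. That is largely built in, since the replicated list was made from these lists. A CpG limit of 0.35 kept the fewest members, 724 (80.4%), and the ratio within 1000 bases of the start kept 772 (85.8%), which were 71.2% of the promoters it selected. Using either replicate list alone, the median width was 768 to 1021.5 bp, the median signal percentile 71.1 to 71.6, the share of summits downstream 75.2% to 77.8%, the share of peaks at another protein-coding gene 15.2% to 15.8% and the share of summits in low-CpG sequence 64.2% to 65.4%.

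The signal percentile moved from 68.2 to 67.0 (500 bp), 70.0 (2500 bp), 71.4 (−log10 q of at least 5), 69.7 (pooled list), 65.5 (CpG limit 0.35), 69.1 (ratio within 1000 bases), 65.5 (nearest start only) and 69.1 (repeated words). The downstream share moved from 77.9% to 72.8% (2500 bp), 80.4% (q) and 75% (protein-coding starts only). The share of peaks at another coding gene moved from 16.3% to 13.7% (500 bp), 24.1% (2500 bp), 17.3% (q), 15.9% (pooled), 13.7% (ratio within 1000 bases) and 7.34% (nearest start only, which by construction drops shared peaks). The share of summits in low-CpG sequence, an alternative chosen after seeing the data, moved from 62.1% to 66.9% (500 bp), 56.6% (2500 bp), 59.3% (q), 63.1% (pooled), 66.3% (limit 0.35), 54.8% (ratio within 1000 bases), 67.1% (nearest start only), 60.5% (repeated words) and 65.0% (protein-coding starts only). All moves exceed the SD between the replicates, which was small, and their causes were not tested. Of 231 list counts under alternatives, also added after seeing the data, 216 stayed within 1.5 times. Of 312 percentiles of the 107 named members in other lists, 174 moved by less than the replicate SD. No paired analysis was possible because there is 1 group. Depth is unknown, so weak and missing peaks cannot be told from shallow coverage.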
